A study of Homo sapiens with 51 samples.

Results

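The distal regions that all 3 count tables of the series share are short open stretches of chromatin, all of the same length, that lie far from gene ends and were listed in undifferentiated cells, in BMP4-treated cells and in SMADi-treated cells alike. They were taken from the day 0 table. A region was kept where at least 50.2% of its bases overlapped a region of the BMP4 table and a region of the SMADi table, and where it lay more than 10 kb from either end of any RefSeq protein-coding or lncRNA gene on GRCh38. This rule kept 27967 of 100584 day 0 regions. The BMP4 table held 142087 regions, the SMADi one held 162317, and 87486 day 0 regions were shared at any distance. The rule used positions and no count, but it asks for a region in every table, so sites listed in only some of the tables are not among its members.

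Most sites that switch genes on in only some cell types lie far from the genes they act on. Such enhancers are bound by transcription factors, lose their nucleosomes and so become open to the Tn5 transposase, which inserts sequencing adapters into accessible DNA in ATAC-seq. A count at a region is therefore a measure of how often its DNA was cut. Promoters with many CG dinucleotides are open in nearly every cell type, while enhancers open and close as cells leave pluripotency. The material was bulk, so fewer cells with an open region and less cutting per cell cannot be told apart.

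All 51 libraries came from H1, an established line of human embryonic stem cells. There were 3 lines: KO, DATG (ΔATG in the series text) and the unedited WT, and the labels name neither the edited gene nor the number of clones. BMP4, a growth factor, was used to drive mesoderm, and SMADi, the STEMdiff neural induction medium, to drive neuroectoderm. Each line was sampled at day 0 before treatment, on days 1, 2, 3, 4 and 5 of BMP4 and on days 1, 4 and 5 of SMADi, with 2 libraries per group except 1 for SMADi day 4 of KO and for SMADi days 1 and 5 of DATG. SMADi days 2 and 3 are not analysed here. The libraries of day 0 held 4616521 to 7516259 counts, those of BMP4 held 4019778 to 13850448, and those of SMADi held 7086918 to 23252871. Levels are given as CPM, the counts relative to library size as scaled within a table, so a level is compared only within its table. The median member had 6.42 CPM at day 0, 5.58 CPM under BMP4 and 5.15 CPM under SMADi, and the highest had 69.7, 62.1 and 58.2 CPM in these tables.

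The label distal held for the ends of genes but not for every start of transcription. The median member lay 28252 bp from the nearest gene end, with 10% of members nearer than 12166 bp and 10% farther than 100907 bp. In all, 16989 members (60.7%) lay inside the body of a coding or lncRNA gene and 10978 (39.3%) between genes. The RefSeq window around a transcription start, 250 bases before to 50 after it, overlapped 752 members (2.69%) at 602 genes, where a long gene has a further start more than 10 kb from its ends. Of these 508 hold the start itself and 244 overlap only another part of the window, and all 752 are called internal starts here. Another 235 members lay within 500 bp of a small RNA gene, a class the rule did not use: 136 at tRNA genes, 43 at miRNA genes, 21 at snRNA genes and 13 at snoRNA genes, with the others at vault RNA, Y RNA and further small RNA genes. The members also came in groups, since 12923 (46.2%) had another member within 10 kb, so neighbouring members are not independent.

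Before any comparison, 1 library stood against its label. At 5 regions that set the lines apart in the other tables, the library labelled KO day 1 SMADi b had levels near those of DATG and not of its companion. Near RDH8, for example, it had 0.826 CPM against 6.58 CPM in KO day 1 SMADi a, while DATG had 1.16 CPM and WT had 1.44 and 1.04 CPM. Near FOLH1 it had 2.41 CPM against 0.313 CPM in its companion, with 2.41 CPM in DATG and 2.7 and 1.82 CPM in WT. Those regions do not tell DATG from WT. Near DNM1 it had 5.64 CPM against 1.41 CPM in its companion, with 6.73 CPM in DATG and 2.64 and 2.14 CPM in WT. At VTRNA1-3 it had 1.38 CPM against 6.27 CPM in its companion, with 1.91 CPM in DATG and 10.2 and 9.49 CPM in WT. The main SMADi counts of KO are therefore also given without it, and all 19 values of KO under SMADi that were chosen by rule kept their direction and their call without it.

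Internal starts behaved unlike the other members in several comparisons, so 5 of their sequences are shown first. Each is the RefSeq window of 300 bases from 250 before to 50 after the start on GRCh38.p14, read 5′ to 3′ on the gene's strand, with the bases inside the accessible region in capitals. The first pair, at IQSEC1 (chr3:13073380-13073679, minus strand) and FAM81A (chr15:59437936-59438235, plus strand), hold 40 and 51 CG dinucleotides and were more open in both mutant lines under SMADi. IP6K3 (chr6:33746856-33747155, minus strand) was also more open but has 6 CG. LIMA1 (chr12:50202124-50202423, minus strand) and PRDM10 (chr11:129947535-129947834, minus strand) have 0 and 4 CG and were less open in both mutant lines under SMADi. At LIMA1 the accessible region covers bases before the start and not the start.
IQSEC1: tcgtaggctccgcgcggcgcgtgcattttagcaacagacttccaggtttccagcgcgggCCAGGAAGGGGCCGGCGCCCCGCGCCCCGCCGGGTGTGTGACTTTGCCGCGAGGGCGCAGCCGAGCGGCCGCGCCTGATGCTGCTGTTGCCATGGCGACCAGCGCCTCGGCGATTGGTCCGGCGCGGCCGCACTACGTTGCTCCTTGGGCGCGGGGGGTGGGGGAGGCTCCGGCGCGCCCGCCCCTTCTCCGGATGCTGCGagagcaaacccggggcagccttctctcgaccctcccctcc
FAM81A: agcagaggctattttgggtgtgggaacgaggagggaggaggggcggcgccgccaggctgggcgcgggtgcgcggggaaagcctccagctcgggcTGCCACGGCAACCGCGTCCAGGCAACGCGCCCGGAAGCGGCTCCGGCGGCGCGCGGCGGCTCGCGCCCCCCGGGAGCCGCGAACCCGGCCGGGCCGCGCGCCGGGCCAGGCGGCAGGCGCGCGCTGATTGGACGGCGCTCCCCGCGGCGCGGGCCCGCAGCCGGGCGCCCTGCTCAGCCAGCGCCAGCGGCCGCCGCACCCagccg
IP6K3: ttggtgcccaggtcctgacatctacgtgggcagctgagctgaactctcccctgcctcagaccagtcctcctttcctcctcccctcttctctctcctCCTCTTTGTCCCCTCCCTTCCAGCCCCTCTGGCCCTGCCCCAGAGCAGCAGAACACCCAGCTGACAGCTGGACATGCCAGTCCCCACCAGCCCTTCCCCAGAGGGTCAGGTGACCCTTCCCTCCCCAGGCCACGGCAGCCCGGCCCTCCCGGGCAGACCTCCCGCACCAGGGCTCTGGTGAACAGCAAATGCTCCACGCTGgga
LIMA1: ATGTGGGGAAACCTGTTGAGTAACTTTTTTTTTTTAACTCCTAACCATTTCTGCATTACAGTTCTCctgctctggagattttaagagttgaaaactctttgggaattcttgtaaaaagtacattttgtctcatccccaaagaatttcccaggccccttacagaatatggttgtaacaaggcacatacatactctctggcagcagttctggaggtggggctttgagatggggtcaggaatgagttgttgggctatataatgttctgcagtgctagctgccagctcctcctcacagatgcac
PRDM10: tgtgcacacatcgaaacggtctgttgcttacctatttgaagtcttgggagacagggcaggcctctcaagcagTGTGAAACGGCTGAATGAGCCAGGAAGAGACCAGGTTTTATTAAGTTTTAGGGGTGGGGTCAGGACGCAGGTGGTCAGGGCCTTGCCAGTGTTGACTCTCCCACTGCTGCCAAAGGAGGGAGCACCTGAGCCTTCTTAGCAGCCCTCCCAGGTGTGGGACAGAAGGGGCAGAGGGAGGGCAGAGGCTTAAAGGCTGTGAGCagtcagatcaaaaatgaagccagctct

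The windows of internal starts among the members held a median of 22 CG, against 14 over all 35116 RefSeq windows. The GC box GGGCGG, read on both strands, was in 58.5% of the internal-start windows and in 45.0% of all windows, and TATAAA was in 3.72% and 11.5% of them. These are matches of letters and not shown sites of binding.

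Mature miRNAs of 3 genes with a member within 500 bp are given from the RefSeq table, 5′ to 3′ with the seed (bases 2 to 8) in capitals, because their regions were among those that differed. MIR128-2 lies in an intron of ARPP21 and makes miR-128, a brain-enriched miRNA, while MIR7853 lies in F13A1. The 3 seeds are all different.
hsa-miR-128-3p: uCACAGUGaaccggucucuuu
hsa-miR-6132: aGCAGGGCuggggauugca
hsa-miR-7853-5p: uCAAAUGCagauccugacuuc

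The region at MIR128-2 (chr3:35744525-35744725) opened in WT cells under SMADi, with 10.3 and 11.8 CPM at day 5 and 5.23 and 5.39 CPM at day 1. The log2 fold change was 1.08 (SE 0.21, adjusted p = 5.75e-05 by edgeR's quasi-likelihood test with Benjamini-Hochberg adjustment over all regions of the table, which is the test behind every adjusted p below). The region at MIR7853 (chr6:6169226-6169426) was higher in KO than in WT cells under BMP4, with 3.36, 4.27 and 6.65 CPM as lowest, median and highest of 10 KO libraries against 1.27, 2.76 and 3.88 CPM of 10 WT libraries. Its log2 fold change was 0.82 (SE 0.15, adjusted p = 5.31e-06), and the groups overlapped. The region at MIR6132, in ST7 (chr7:117020121-117020321), rose in WT by 1.33 under SMADi and by 0.78 under BMP4.

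The members held 22.4% to 24.0% of all counts at day 0. Each table has its own set of regions, so the share of counts in members is compared between lines within a table and not between tables. On day 5 of SMADi the share was 14.6% and 15.4% in KO and 15.5% in DATG, against 18.3% and 19.5% in WT. Under BMP4 the day 5 share was 19.5% and 20.4% in KO and 19.7% and 20.0% in DATG, against 18.1% and 18.7% in WT. On day 5 the mutant lines thus lay below WT under SMADi and above WT under BMP4, with no overlap. The mean share on day 1 was 21.5% in KO and 21.8% in DATG, against 21.6% in WT, under BMP4. On day 1 of SMADi it was 21.1% in KO and 22.7% in the DATG library, against 21.4% in WT, so DATG lay above WT on that day.

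**Figure D1:**
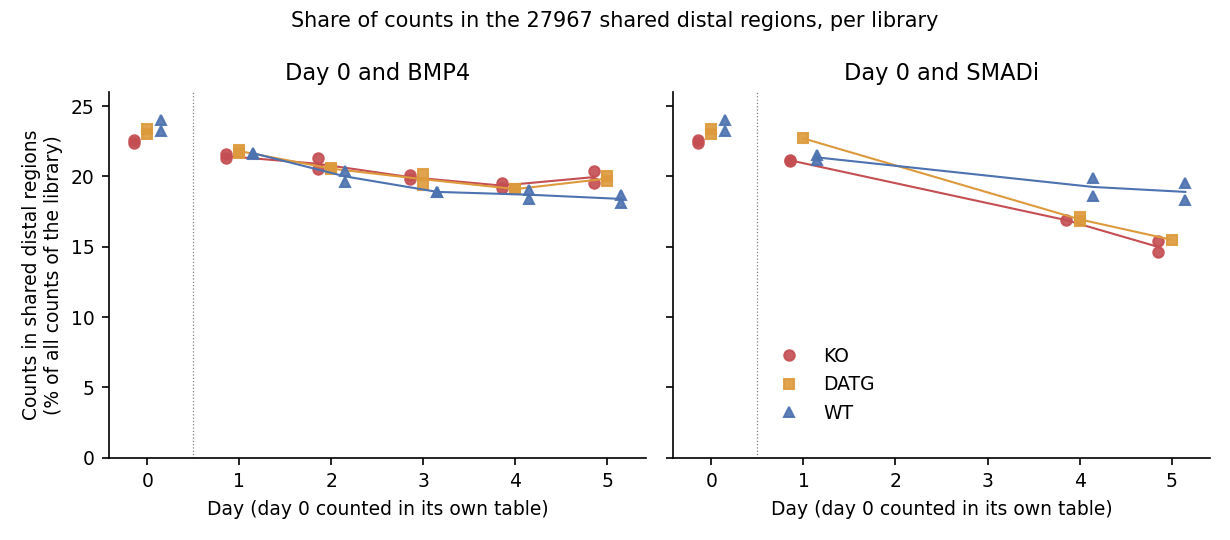
Share of each library's counts that fell in the 27967 shared distal regions (vertical axis, %) by day (horizontal axis), with day 0 and BMP4 on the left and day 0 and SMADi on the right. Each point is a library and lines join the group means. On day 5 of SMADi the KO and DATG points sit at 14.6% to 15.5%, below the WT points at 18.3% and 19.5%.

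In WT cells under BMP4, more members closed than opened. The only untreated libraries were of day 0, so treatment and time in culture cannot be told apart. Between day 1 and day 5, 2494 members (8.92%) rose and 6417 (22.9%) fell, with a median log2 change of -0.24, so that 31.9% were called against 34.9% of all regions in the table. In the whole table rises were the more frequent, with 28780 regions rising and 20855 falling. That table also holds regions not listed at day 0, which the rule leaves out, so the sets are not alike. Of the shared regions within 10 kb of a gene end 17.4% rose and 13.5% fell. The region 78658 bp from LARP1, a regulator of mRNA translation (chr5:154604121-154604321), had 22.1 and 22.7 CPM at day 5 and 4.5 and 5.71 CPM at day 1, a log2 change of 2.15 (SE 0.18, adjusted p = 2.75e-19). The region in LINC03007 whose nearest coding gene is NFE2L3, a transcription factor (chr7:25726189-25726389), had 15.5 and 12.7 CPM at day 5 and 2.91 and 3.12 CPM at day 1. Its log2 change was 2.21 (SE 0.22, adjusted p = 1.73e-15).

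In the other direction, the region nearest SLC16A7, a monocarboxylate transporter (chr12:59328616-59328816), had 3.83 and 2.28 CPM at day 5 and 13.5 and 13 CPM at day 1. That was a log2 change of -2.16 (SE 0.22, adjusted p = 2.37e-14), and the days did not overlap in any of these 3 regions. Regions near PRICKLE2, a planar cell polarity gene, and XPNPEP1 rose by 2.10 and 2.09, and regions near CTNND2, a catenin of neurons, and PRKG1, a cGMP-dependent kinase, fell by 2.01 and 1.98 on the log2 scale. Near mesoderm genes, the region 27203 bp from SNAI1, a driver of epithelial-mesenchymal transition, rose by 2.06 (adjusted p = 5.9e-19). The region 19971 bp from APLNR, a receptor of early mesoderm, rose by 1.76 (adjusted p = 1.76e-11). It rose by 3.31 in WT under SMADi (adjusted p = 4.69e-16), so its rise was not particular to BMP4. From day to day, 2381 members were called between days 2 and 1 (8.51%, against 10.3% of all regions), 423 between days 3 and 2 (1.51%, against 2.78%), 257 between days 4 and 3 (0.919%, against 1.18%) and 368 between days 5 and 4 (1.32%, against 3.05%), so the members followed the whole table in this. Leaving out the library WT day 5 b lowered the share called between days 5 and 1 to 16.8%, and leaving out WT day 1 a or b lowered it to 20.3% or 23.8%. Scaling by total counts in place of TMM gave 1782 rises and 9753 falls.

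Under SMADi, too, more members closed than opened in WT cells, and again treatment and time in culture cannot be told apart. Between day 1 and day 5, 3221 members (11.5%) rose and 6584 (23.5%) fell, with a median log2 change of -0.17, so 35.1% were called against 40.9% of all regions in the table. The region in ZBTB16, a zinc finger transcription factor (chr11:114092050-114092250), had 25.3 and 24.6 CPM at day 5 and 1.62 and 1.88 CPM at day 1. Its log2 change was 3.83 (SE 0.21, adjusted p = 2.75e-18). The region in EPHB2, an ephrin receptor of axon guidance (chr1:22806583-22806783), had 18.7 and 20.1 CPM at day 5 and 2.28 and 1.23 CPM at day 1, a log2 change of 3.45 (SE 0.22, adjusted p = 1.5e-16).

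The region in KIAA0825 (chr5:94362331-94362531) went the other way, with 0.588 and 1.13 CPM at day 5 and 19.5 and 22.9 CPM at day 1. Its log2 change was -4.47 (SE 0.29, adjusted p = 3.33e-16), and in these 3 regions the days did not overlap. Regions near CDH1, the epithelial cadherin of pluripotent cells (chr16:68778958-68779158), and PODXL, a surface glycoprotein of stem cells (chr7:131604813-131605013), fell by 3.16 and 2.48 on the log2 scale. Of the anchor regions, that near PAX6, a neuroectoderm regulator, rose by 0.73 (adjusted p = 0.000125), that near LHX2, a forebrain regulator, by 0.69 (adjusted p = 0.00224, or 0.0774 without WT day 1 b), and that near PRDM14, a pluripotency factor, fell by 0.85 (adjusted p = 0.000881). Those near SOX2 (-0.21) and LIN28B (0.29) were not called. The anchor region near the mesoderm gene APLNR rose by more, 3.31 (adjusted p = 4.69e-16). That near OTX2, a forebrain and pluripotency factor, had 3.97 and 5.16 CPM at day 5, against 8.65 and 11.7 CPM at day 1. The anchor regions thus did not sort by the fate of their gene.

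The treatments shared part of this change and split on the rest. In WT cells 2783 members fell under both treatments, which is 43.4% of those that fell under BMP4 and 42.3% of those that fell under SMADi, and 818 rose under both, 32.8% and 25.4% of the risers. Another 387 and 269 moved in opposite directions and 13508 were called in neither. Over all members 22.9% fell under BMP4 and 23.5% under SMADi, while 8.92% and 11.5% rose. These combined counts were not made over all shared regions. Set directly against each other in WT cells, BMP4 and SMADi differed at 12.2% of the members on day 1, against 12.2% of all shared regions, and at 33.8% on day 5, against 30.7%. Treatment and count table cannot be told apart in these last counts, because each treatment was counted in its own table. Across the 27967 members the WT level at day 0 correlated with that on BMP4 day 1 and day 5 at r = 0.873 and 0.756, and on SMADi day 1 and day 5 at r = 0.836 and 0.648, given as a description over regions that share their base composition and mappability.

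At day 0 few members set the mutant lines apart. In KO cells 9 members were higher and 6 lower than in WT (0.0536% of members, against 0.0855% of all regions), and 1978 had an unadjusted p under 0.05. In DATG cells 6 were higher and 61 lower (0.24%, against 0.205% of all regions), with 2613 at an unadjusted p under 0.05. KO and DATG differed from each other at 78 members (0.279%, against 0.33%). DESeq2 called 2 members in each line, and the shares with 1 library left out ran from 0.0179% (without WT day 0 a) to 0.107% (without WT day 0 b) in KO and from 0.0215% to 0.354% (the same libraries) in DATG. Without KO day 0 a the KO share was 0.025%, and without DATG day 0 a or b the DATG share was 0.1% or 0.0822%.

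The region nearest CDH18, a neural cadherin 796793 bp away (chr5:18674303-18674503), had 2.26 and 2.82 CPM in DATG, against 10.2 and 10.6 CPM in WT, a log2 change of -2.03 (SE 0.28, adjusted p = 1.05e-07). In KO cells the region near ARHGAP40 had 15.6 and 14.1 CPM, against 6.89 and 8.26 CPM in WT (log2 0.99, SE 0.21, adjusted p = 0.0128). The region near BCL2L14 (chr12:12009348-12009548) had 5.04 and 3.69 CPM in KO, against 11.4 and 9.52 CPM in WT (log2 -1.24, SE 0.26, adjusted p = 0.0105). The groups did not overlap in these 3 regions, but of them only CDH18 kept its call under DESeq2 and with each library left out.

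A handful of regions carried the same line difference through all 3 tables: 5 in KO (3 higher, 2 lower, 0.0179% of members) and 16 in DATG (2 higher, 14 lower, 0.0572%). The share over all shared regions was not counted. Without WT day 0 a these shares were 0.00715% and 0.0143%, without KO day 0 a or b the KO share was 0.0107%, and without DATG day 0 a or b the DATG share was 0.025% or 0.0322%. VTRNA2-1 is a short RNA gene related to the vault RNAs and known to be variably imprinted. The strongest region in DATG, also called in KO, lay at this gene, 16754 bp from TGFBI (chr5:136080572-136080772). At day 0 it had 2.6 and 3.48 CPM in KO and 0.797 and 0.471 CPM in DATG, against 7.82 and 8.08 CPM in WT. By day 5 of BMP4 it had 2.29 and 1.81 CPM in KO and 0.566 and 0.248 CPM in DATG, against 9.5 and 8.44 CPM in WT. By day 5 of SMADi it had 1.07 and 0.511 CPM in KO and 0.186 CPM in DATG, against 11.6 and 9 CPM in WT.

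Every KO and DATG library lay below every WT library at VTRNA2-1 in each table, and WT stayed between 5.97 and 11.6 CPM on all treated days. The log2 changes in KO were -1.41, -2.08 and -3.87 at day 0, under BMP4 and under SMADi (SE 0.29, 0.14 and 0.24, adjusted p = 0.00501, 3.22e-24 and 7.6e-16). In DATG they were -3.58, -3.53 and -5.66 (SE 0.37, 0.17 and 0.32, adjusted p = 4.71e-13, 1.15e-33 and 1.29e-16). The day 0 call in KO was lost without WT day 0 a (adjusted p = 0.0791) and without KO day 0 a (adjusted p = 0.441).

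The region at VTRNA1-3, a vault RNA gene on the same chromosome (chr5:140726118-140726318), was called lower in all 3 tables in DATG but not in KO. It had 1.99 and 1.57 CPM in DATG at day 0, against 6.63 and 8.62 CPM in WT, with 5.04 and 5 CPM in KO. KO lay below WT on later days too, with 3.7 and 3.75 CPM on day 5 of BMP4, against 9.5 and 10.3 CPM in WT. On day 5 of SMADi KO had 3.58 and 3.13 CPM, against 6.32 and 7.22 CPM. On day 2 of BMP4 KO (4.95 and 3.76 CPM) overlapped WT (5.51 and 4.88 CPM). The DATG log2 changes were -2.05, -2.42 and -2.46 in the 3 tables (adjusted p = 9.13e-06, 3.15e-26 and 2.55e-09), and no DATG library reached a WT library, but DESeq2 gave an adjusted p of 0.0758 at day 0. Near AGBL4, a tubulin-modifying enzyme (chr1:49651224-49651424), the DATG changes were -1.25, -1.32 and -1.59. Near CDH18 they were -2.03, -1.14 and -1.76.

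In KO the region 22200 bp from RDH8, a retinol dehydrogenase of the retina (chr19:10044479-10044679), was open where the other lines were nearly closed. At day 0 it had 8.87 and 9.56 CPM in KO and 0.93 and 0.627 CPM in DATG, against 1.06 and 0.718 CPM in WT. Under BMP4 the 10 KO libraries had 2.8, 4.38 and 6.48 CPM as lowest, median and highest, against 0.221, 0.355 and 1.4 CPM in the 10 WT libraries. The KO log2 changes were 3.30, 3.11 and 2.59 in the 3 tables (SE 0.35, 0.21 and 0.43, adjusted p = 3.18e-13, 5.64e-24 and 6e-05). The groups were apart at day 0 and under BMP4, and under SMADi they overlapped through the library labelled KO day 1 SMADi b, without which the change was 2.88 (adjusted p = 1.95e-09).

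The region whose nearest coding gene is FOLH1, a folate hydrolase 349970 bp away (chr11:49558572-49558772), was the reverse. It had 0.917 and 0.217 CPM in KO and 8.37 and 6.27 CPM in DATG at day 0, against 6.1 and 5.21 CPM in WT, and the KO log2 changes were -3.15, -4.29 and -4.17. FOLH1 has a near-identical copy on the same chromosome, so reads could be split between copies and this region is uncertain. The same holds for a region in SLC2A14, a glucose transporter gene with the close paralog SLC2A3, where KO was higher by 1.32, 1.84 and 0.68. Its SMADi call was lost without any of 4 libraries, namely KO day 1 a, KO day 4 b, KO day 5 a and WT day 5 b.

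In DATG the region in CIZ1 nearest DNM1, which encodes the endocytic GTPase dynamin 1 (chr9:128192878-128193078), had 10.1 and 11.4 CPM at day 0, against 2.65 and 3.77 CPM in WT, while KO had 1.53 and 2.82 CPM. The DATG log2 changes were 1.77, 2.26 and 1.42 (adjusted p = 8.31e-06, 2.38e-29 and 4.23e-06). A second region in ZBTB16 (chr11:114232791-114232991) had 6.38 and 6.74 CPM in DATG at day 0, against 2.65 and 2.69 CPM in WT, and log2 changes of 1.29, 1.51 and 1.07. The day 0 calls at DNM1, ZBTB16 and, in KO, NECTIN3 and SLC2A14 did not hold under every alternative.

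**Figure D2:**
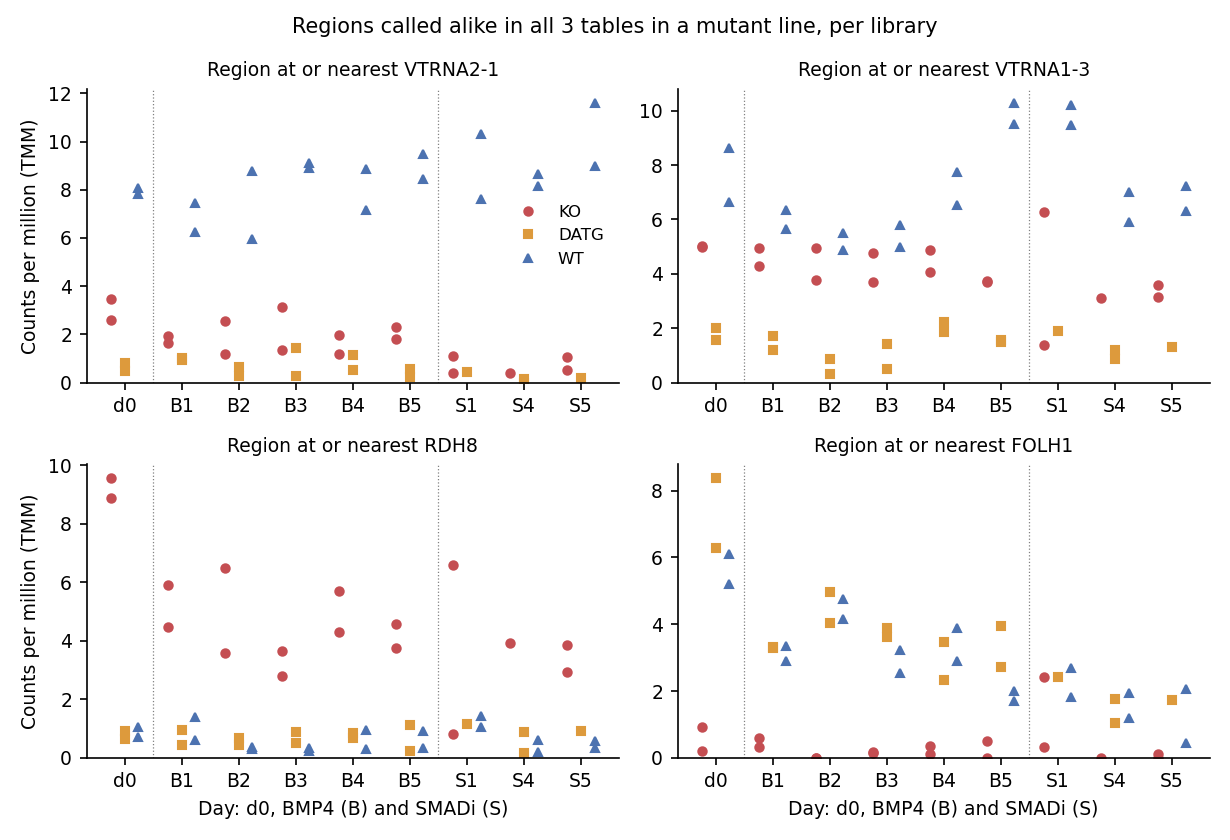
Level of 4 regions called alike in all 3 tables, in TMM-scaled CPM (vertical axes), by day: day 0 (d0), BMP4 days 1 to 5 (B1 to B5) and SMADi days 1, 4 and 5 (S1, S4, S5). Each point is a library. At VTRNA2-1 every KO and DATG point lies below every WT point, and near RDH8 the KO points lie above the others except for 1 KO point at S1 with 0.826 CPM.

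Under BMP4 more members were higher than lower in both mutant lines. Over the mean of the 5 days, 3960 members were higher and 1648 lower in KO (20.1%, against 21.5% of all regions), and 2060 were higher and 662 lower in DATG (9.73%, against 9.33%). The changes were small, with 45 higher and 9 lower members past 2-fold in KO and a median log2 change of 0.05 in KO and 0.04 in DATG. In the whole table, which also holds regions not listed at day 0, KO calls ran the other way, with 12900 regions higher and 17593 lower. Of the shared regions within 10 kb of a gene end 8.45% were higher and 4.58% lower in KO. KO and DATG differed at 317 members (1.13%, against 1.84%).

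More members were called on day 5 of BMP4 than on day 1, as in the whole table, with no steady order between. On day 1, 18 members were called in KO (background 0.0549%) and 12 in DATG (background 0.0422%). By day 5, 3586 were called in KO (12.8%, against 15.9% of all regions) and 1023 in DATG (3.66%, against 4.66%). Days 2, 3 and 4 gave 2.08%, 4.27% and 3.48% in KO, against 2.19%, 5.9% and 4.88% of all regions. In DATG they gave 0.0965%, 1.63% and 0.49%, against 0.0859%, 1.86% and 0.695%. The change from day 1 to day 5 itself differed from WT at 524 members in KO (387 higher, 137 lower, 1.87%, against 2.09%) and at 19 in DATG (0.0679%, against 0.076%).

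The region near CAMKMT, a calmodulin methyltransferase (chr2:44790482-44790682), had 26.9 and 17.5 CPM in KO and 13.2 and 17.6 CPM in DATG on day 5, against 8.12 and 6.27 CPM in WT. Over the 5 days its log2 change was 1.08 in KO (SE 0.11, adjusted p = 9.02e-13) and 0.87 in DATG (SE 0.11, adjusted p = 1.06e-08). The region near SHISA9, a regulator of AMPA receptors (chr16:13594843-13595043), had 8.95, 11.4 and 14.4 CPM as lowest, median and highest in KO, against 4.14, 5.08 and 8.61 CPM in WT. All 10 KO libraries lay above all 10 WT libraries there, and the log2 change was 1.04 (SE 0.10, adjusted p = 6.76e-16). CADPS2, a gene of vesicle release, and ASTN1, a gene of neuron migration, had regions higher in KO by 1.00 and 0.98.

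Fewer regions were lower, and the clearest lay in MYOCD, a coactivator of heart and smooth muscle genes (chr17:12731162-12731362). On day 5 it had 14.7 and 14.9 CPM in KO and 27.4 and 20.1 CPM in DATG, against 33.7 and 32.5 CPM in WT. The mutant libraries lay below the WT libraries on that day, and the KO log2 change over 5 days was -1.01 (SE 0.09, adjusted p = 6.19e-17). Regions near CNPY1 and LIPC, a hepatic lipase, were lower in KO by -1.09 and -1.06. In DATG the region near PARP16, an ADP-ribosyltransferase (chr15:65300656-65300856), had 1.49, 3.65 and 4.97 CPM as lowest, median and highest, against 6.24, 8.95 and 12.3 CPM in WT, with no overlap (log2 -1.34, SE 0.12, adjusted p = 1.04e-16). KO had 7.86, 11.8 and 14.9 CPM there.

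Under SMADi both mutant lines were less accessible than WT at a large share of the members, 32.6% in KO and 24.2% in DATG. In KO, 2318 members were higher and 9113 lower (40.9%, against 39.5% of all regions), with a median log2 change of -0.20 and 94 higher and 3086 lower members past 2-fold. In DATG, 1982 were higher and 6757 lower (31.2%, against 28.5%), with a median of -0.13. Over all regions tested under SMADi, KO had 28948 higher and 35125 lower, and DATG had 17992 higher and 28253 lower. Those also include regions not listed at day 0. Lower calls made up 79.7% of the KO calls among members and 54.8% over all regions. The DATG shares were 77.3% and 61.1%. Past 2-fold in either direction in KO were 3180 members and 20203 of all regions (12.4%). KO and DATG differed from each other at 22 members (0.0787%, against 0.0598%), or at 29 (0.104%, against 0.0936%) without the library labelled KO day 1 SMADi b. Without that library the KO counts against WT were 1917 higher and 8265 lower. Leaving out the lone DATG day 5 library lowered the DATG share to 17.8%.

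More members were again called on day 5 than on day 1, but DATG had the most on day 4, with 8509 members called (30.4%, against 30.6% of all regions). The KO share on day 4 lay between those of days 1 and 5. KO had 1 library on day 4 and DATG had 1 on days 1 and 5, so these days also differ in library number. On day 1, 273 members were called in KO (0.976%, against 0.89%), but 43 (0.154%, against 0.187%) without the library labelled KO day 1 SMADi b, and 210 in DATG (0.751%, against 0.63%). By day 5 there were 10861 in KO (38.8%, against 40.2%) and 7311 in DATG (26.1%, against 26.7%). The change from day 1 to day 5 differed from WT at 5890 members in KO (720 higher, 5170 lower, 21.1%, against 18.9%) and at 5007 in DATG (475 higher, 4532 lower, 17.9%, against 13.9%). Without the library labelled KO day 1 SMADi b the KO counts were 10533 on day 5 and 4175 for that change (449 higher, 3726 lower, 14.9%, against 13% of all regions).

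The largest falls left almost no signal. The region near GJC3, a gap junction protein (chr7:99944348-99944548), had 17.1 and 18.4 CPM in KO and 21.8 CPM in DATG on day 1, against 20.8 and 20.6 CPM in WT. On day 4 it had 0 CPM in KO and 0.134 and 0.424 CPM in DATG, against 12.1 and 11.9 CPM in WT. On day 5 it had 0.286 and 0.511 CPM in KO and 0.139 CPM in DATG, against 4.26 and 2.91 CPM in WT.

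At GJC3 the day 1 libraries all lay between 17.1 and 21.8 CPM, and on days 4 and 5 the mutant libraries lay below WT. The log2 changes were -4.58 in KO (SE 0.32, adjusted p = 1.15e-14), whose size depends on the prior count because a group is at 0, and -3.27 in DATG (SE 0.23, adjusted p = 3.5e-14). The regions near ZNF100 and LIMCH1 were lower in KO by -3.74 and -3.68. In DATG those near NOX3, MN1 and PHF14 were lower by -3.76, -3.40 and -3.33.

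Regions that were higher in the mutant lines under SMADi changed by less. The region in CCDC3, which encodes a secreted factor (chr10:13079361-13079561), had 13.4, 14.9, 14.7, 12.6 and 14.6 CPM in the 5 KO libraries and 18, 15.2, 16 and 15.8 CPM in the 4 DATG libraries, against 3.11, 3.79 and 6.56 CPM as lowest, median and highest of 6 WT libraries. It already stood apart on day 1, and neither mutant line overlapped WT (log2 1.75 in KO, SE 0.14, adjusted p = 2.31e-13, and 1.97 in DATG, SE 0.14, adjusted p = 3.9e-14). The region near KLRF2, a lectin-like receptor gene, inside CLEC2A (chr12:9911065-9911265), had 32.2 and 39 CPM in KO and 27.6 CPM in DATG on day 5, against 9.41 and 7.94 CPM in WT. Its log2 changes were 1.75 and 1.69. A region in PDGFRB, a growth factor receptor of mesenchymal cells, was higher in DATG by 1.59.

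Many members thus had opposite line differences under the treatments. In KO 2270 members were higher under BMP4 and lower under SMADi, which is 57.3% of those higher under BMP4 and 24.9% of those lower under SMADi. In the other combinations 282 were higher in both, 464 lower in both, and 270 lower under BMP4 and higher under SMADi. In DATG 1124 were higher under BMP4 and lower under SMADi (54.6% and 16.6%), 133 higher in both, 166 lower in both and 123 the reverse. Over all members 14.2% were higher under BMP4 and 32.6% lower under SMADi in KO, and 7.37% and 24.2% in DATG. These combined counts were not made over all shared regions. The opposite count in KO was 2128 without the library labelled KO day 1 SMADi b, and DESeq2 gave 1337 in KO and 460 in DATG.

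The difference of the line effects was tested directly over the days both tables share (1, 4 and 5), as the mutant-minus-WT change under BMP4 minus that under SMADi, adjusted over the 87486 paired regions. In KO 7975 members had a positive difference and 2144 a negative one (36.2%, against 32.1% of all shared regions), and in DATG 6439 and 1538 (28.5%, against 23.6%). Without the library labelled KO day 1 SMADi b the KO counts were 7678 and 1976. Leaving out the lone DATG day 5 SMADi library lowered the DATG share to 18.8%, but the SMADi effect is then the mean of days 1 and 4 only. The mutant lines share the WT libraries, so their counts are not independent of each other.

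A region 36791 bp from OTX2, a homeobox factor of forebrain and of pluripotent cells (chr14:56847270-56847470), shows the pattern. After 5 days of BMP4 it had 16.2 and 17.5 CPM in KO and 15 and 20.1 CPM in DATG, against 9.5 and 10.6 CPM in WT. On day 4 of SMADi it had 2.02 CPM in KO and 2.62 and 2.66 CPM in DATG, against 13.5 and 15.1 CPM in WT, while on day 1 all libraries lay between 7.64 and 11.7 CPM. The mutant libraries were all above WT on day 5 of BMP4 and all below on day 4 of SMADi. By day 5 of SMADi the WT level had also dropped, to 3.97 and 5.16 CPM. The mutant libraries then had 0.93 and 0.192 CPM in KO and 0.557 CPM in DATG. The log2 changes were 0.56 (KO) and 0.45 (DATG) under BMP4 and -1.94 (KO) and -1.97 (DATG) under SMADi. The differences were 2.46 (SE 0.20, adjusted p = 1e-15) in KO and 2.48 (SE 0.21, adjusted p = 2.68e-15) in DATG.

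Near TBXT, the mesoderm factor brachyury (chr6:166076752-166076952), the lines were not called apart under BMP4 (0.16 in KO, 0.11 in DATG) and were lower under SMADi (-1.67 in both). The differences were 1.74 and 1.71 (adjusted p = 1.47e-06 and 5.71e-06). The region near APLNR (chr11:57213420-57213620) ran the other way. On day 3 of BMP4 it had 5.16 and 4.55 CPM in KO and 6.54 and 5.26 CPM in DATG, against 10.1 and 10.3 CPM in WT. On day 4 of SMADi it had 27.8 CPM in KO and 24.3 and 26.2 CPM in DATG, against 7.95 and 8.91 CPM in WT. The mutant lines lay below WT on the first of these days and above on the second. Day 3 is not in the direct test, which uses days 1, 4 and 5. Under BMP4 KO also lay below WT on days 4 and 5. DATG overlapped WT there, with 10 and 8.39 CPM, against 11.1 and 9.96 CPM, on day 4. On day 5 DATG had 12.2 and 9.94 CPM, against 10.3 and 13.8 CPM. The tested differences at APLNR were -1.39 in KO (adjusted p = 7.97e-09) and -1.08 in DATG (adjusted p = 1.42e-05). A region near THBS4, an extracellular matrix gene, had the largest negative difference named in KO (-2.37), with 4.46 and 6.6 CPM in KO and 13.6 and 8.94 CPM in DATG on day 5 of BMP4, against 14.9 and 17.1 CPM in WT. After 5 days of SMADi it had 29.7 and 36.9 CPM in KO and 32.7 CPM in DATG, against 10.7 and 9.2 CPM in WT.

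Of 18 anchor genes of pluripotency, mesoderm and neural fate, 14 had a member within 500 kb that was nearest to them, and 7 of these regions were called in a line comparison within a table. Beside OTX2, TBXT and APLNR, the region near SOX1, a neural progenitor factor, was higher in KO under BMP4 by 0.50 (SE 0.11, adjusted p = 0.00014). The region near EOMES, a mesoderm and endoderm factor, was higher in KO by 0.29 (adjusted p = 0.015, or 0.0841 with DESeq2) and that near PRDM14 by 0.28 (adjusted p = 0.00676, or 0.0558 without KO day 4 b). The region near HAND1, a factor of lateral mesoderm and amnion, was lower under SMADi by -0.34 in KO and -0.39 in DATG (adjusted p = 0.021 and 0.0191), which DESeq2 did not call (adjusted p = 0.075 and 0.0683). The regions near GATA6, ID1, MSX2, PAX6, LHX2, LIN28B and SOX2 chosen by the same rule were called in no line comparison within a table.

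**Figure D3:**
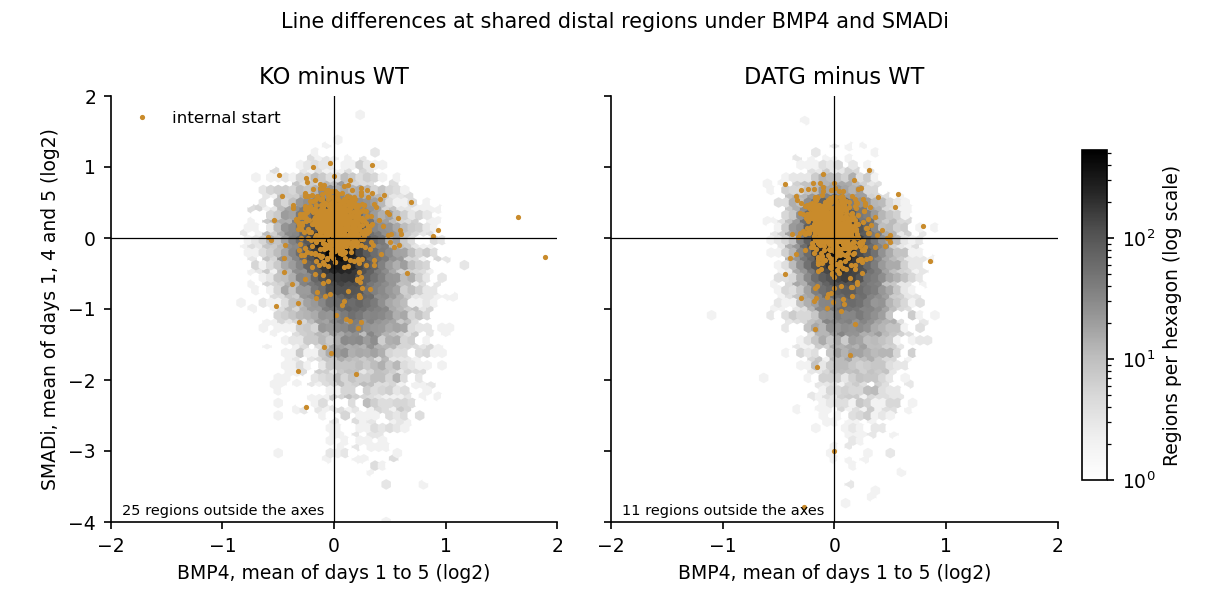
Log2 change of the shared distal regions under SMADi (vertical axis, mean of days 1, 4 and 5) against that under BMP4 (horizontal axis, mean of days 1 to 5), for KO minus WT on the left and DATG minus WT on the right. Grey hexagons count regions on a log scale, orange points are internal starts, and 25 (KO) and 11 (DATG) regions lie outside the axes. The grey mass extends downward and to the right, and most orange points lie above 0 on the vertical axis.

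Internal starts did not follow the other members. Under SMADi 270 of the 752 were higher and 49 lower in KO (35.9% and 6.52%, median log2 0.20), whereas the members with neither a start nor a small RNA gene were 7.51% higher and 33.4% lower (median -0.21). In DATG the shares were 26.3% higher and 5.72% lower, against 6.55% and 24.7%. The gap between the medians of these classes in DATG was 0.31 on the log2 scale. It was 0.52 without the lone day 1 library and 0.18 without the lone day 5 library, and in each case that day drops out of the mean. In WT under BMP4, 207 internal starts rose and 58 fell between day 1 and day 5 (27.5% and 7.71%), against 8.39% and 23.4% of the others. The difference between treatments was negative at 200 and positive at 49 of them in KO (26.6% and 6.52%), against 7.1% and 29.2% of the others.

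Under BMP4 the KO line differed little at internal starts (7.31% higher, 5.05% lower). Without the library labelled KO day 1 SMADi b, 28.7% of internal starts were higher and 6.25% lower in KO under SMADi, against 6.24% and 30.2% of the others. The levels of internal starts are higher than those of other members. The contrast was also present within the highest level class, but levels were not matched inside that wide class. Whether level accounts for the contrast was not tested. Within the highest of 4 level classes, internal starts were 45.4% higher and 3.2% lower in KO under SMADi (n = 469), against 15.8% and 21.5% of the others, or 34.8% and 3.2%, against 13.4% and 18.5%, without that library. The same class of WT regions under BMP4 gave 41% rising and 4.19% falling (n = 454), against 18% and 13.9%.

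**Figure D4:**
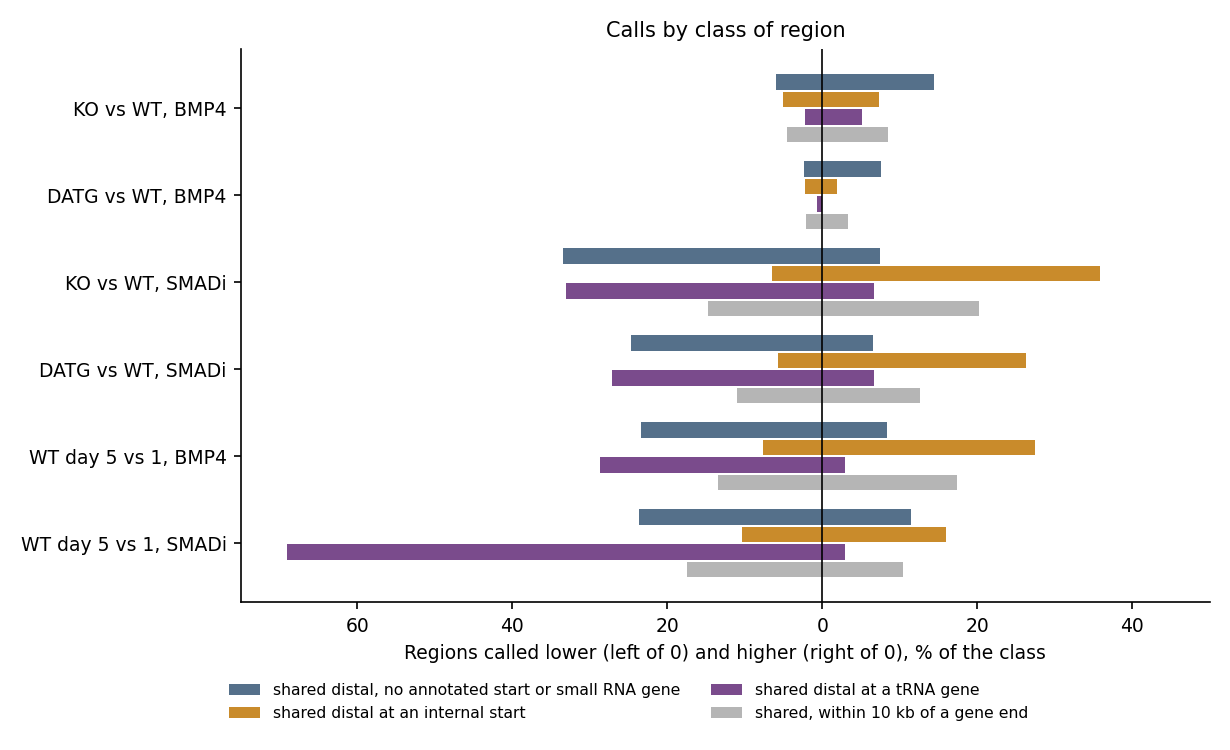
Regions called lower (bars left of 0) and higher (bars right of 0), in % of the class, in 6 comparisons for shared distal regions without an annotated start or small RNA gene, at an internal start, at a tRNA gene, and for shared regions within 10 kb of a gene end. Internal starts have 35.9% higher and 6.52% lower in KO under SMADi, and tRNA gene regions have 69.1% lower in WT day 5 against day 1 under SMADi.

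The share called among internal starts went with the CG content of the window. Windows with 0 to 14 CG (258 regions) were 19.0% higher and 16.3% lower in KO under SMADi. Those with 15 to 30 CG (255 regions) were 32.2% higher and 2.75% lower, and those with 31 to 57 CG (239 regions) were 58.2% higher with 0 of 239 lower. The shares higher were 16.3%, 23.9% and 47.3% without the library labelled KO day 1 SMADi b. The same order held in DATG, where 15.9%, 23.1% and 41.0% were higher, and in WT under BMP4, where 17.4%, 23.1% and 43.1% rose. It did not appear in KO under BMP4 (6.98%, 9.8% and 5.02% higher) or in WT under SMADi (20.9%, 12.5% and 14.2% rising).

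Among internal starts that were higher in KO under SMADi the median window held 31.5 CG and 73.0% held GGGCGG, against 7 CG and 16.3% among those that were lower. This order is a description, since CG content also goes with the level of a region. At IQSEC1, a guanine nucleotide exchange factor for ARF proteins (region chr3:13073420-13073620), KO had 8.15, 7.3, 10.6, 9.8 and 12 CPM and DATG 7.64, 8.53, 10 and 11 CPM, against 2.65, 4.59 and 6.39 CPM as lowest, median and highest of the 6 WT libraries. Neither mutant line overlapped WT (log2 1.02 in KO, SE 0.15, adjusted p = 4.03e-07). At FAM81A the log2 change in KO was 0.99 (SE 0.15, adjusted p = 1.77e-06).

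At LIMA1, an actin-binding protein, all lines had the region open on day 1 of SMADi, with 6.66 and 9.02 CPM in KO and 7.73 CPM in DATG, against 6.67 and 7.54 CPM in WT. On day 5 it had 0.286 and 0 CPM in KO and 0 CPM in DATG, against 1.32 and 1.65 CPM in WT. The region thus closed in each line, and lay below WT in the mutant lines on day 5 (KO log2 -2.38 over the 3 days, SE 0.38, adjusted p = 3.19e-06). At PRDM10, a zinc finger protein, KO had 0.787 and 0.575 CPM and DATG 0.51 CPM on day 5, against 4.26 and 3.84 CPM in WT (KO log2 -1.91, SE 0.22, adjusted p = 5.49e-09).

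**Figure D5:**
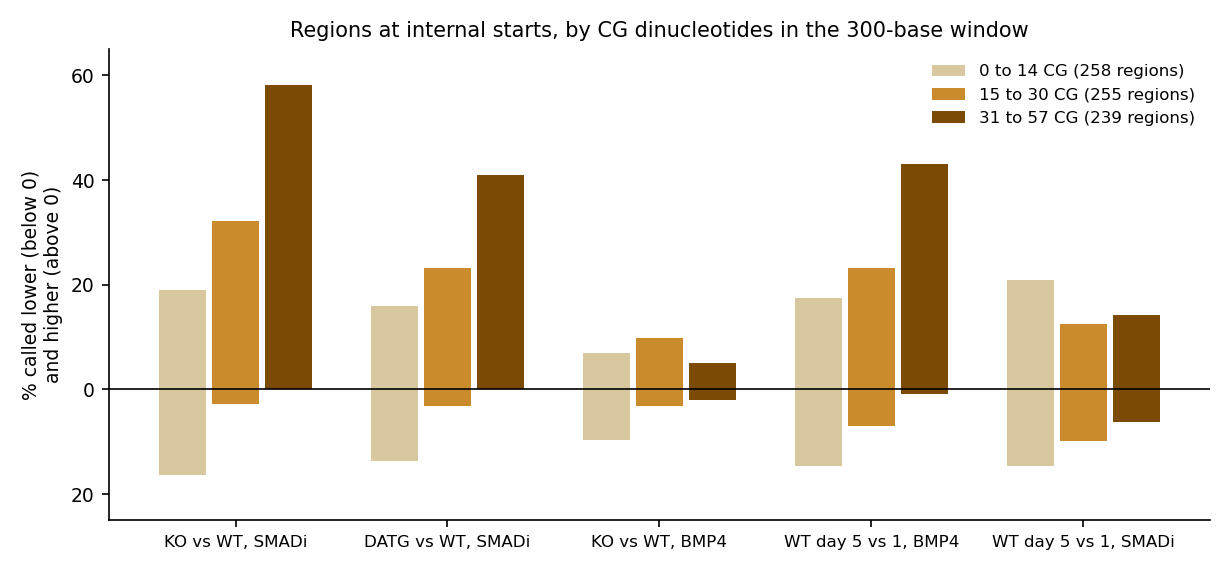
Internal starts called higher (bars above 0) and lower (bars below 0), in % of their class (vertical axis), in 5 comparisons, by the number of CG dinucleotides in the 300-base RefSeq window. In KO under SMADi the share called higher is 19.0%, 32.2% and 58.2% from the lowest to the highest class.

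Regions at tRNA genes were the class with the largest share of falls in WT under SMADi among those compared here. In WT 94 of the 136 were lower on day 5 than on day 1 (69.1%, median log2 -0.85), against 23.7% of members with neither a start nor a small RNA gene. The same comparison gave 62.5% in KO, against 47.0% of the other members (all regions called in either direction, 60.9%), and 51.5% in DATG, against 42.5% (all regions, 49.1%). The KO shares were 62.5% and 40.5% without the library labelled KO day 1 SMADi b. Under BMP4 39 of the 136 (28.7%) fell in WT, against 23.4% of the others. Against WT under SMADi, 45 (33.1%) were lower in KO and 37 (27.2%) in DATG, close to the 33.4% and 24.7% of the other members.

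The region at TRV-TAC4-1, a valine tRNA gene (chr6:27290616-27290816), had 1.47 and 0.993 CPM on day 5 and 14.1 and 9.62 CPM on day 1 in WT under SMADi, a log2 change of -3.35 (SE 0.32, adjusted p = 8.65e-12). The region at TRP-CGG1-2, a proline tRNA gene (chr16:3172168-3172368), had 1.76 and 3.05 CPM on day 5 and 22.7 and 19.4 CPM on day 1. Both days stood apart in these regions. The region at TRL-CAG2-2, a leucine tRNA gene (chr16:57300557-57300757), had 39.3 and 29.7 CPM on day 5 and 26.7 and 25.7 CPM on day 1 (log2 0.37), so the class was not uniform. Genes for tRNAs have near-identical copies, so reads there may be shared between copies.

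Members can also be read by the genes they lie near, using lists of 10 gene groups and each member's nearest coding gene within 500 kb. No list had a call at day 0 in either mutant line. The shares over all members, against which the counts are read, were 14.2% higher and 5.89% lower in KO and 7.37% and 2.37% in DATG under BMP4. Under SMADi they were 8.29% higher and 32.6% lower in KO and 7.09% and 24.2% in DATG. Near pluripotency genes (106 members at 22 genes), 30 members were higher and 3 lower in KO under BMP4, and 15 and 2 in DATG. Under SMADi, 6 were higher and 49 lower in KO, and 4 and 42 in DATG. In percent the KO counts are 28.3% higher under BMP4, against 14.2% of all members, and 46.2% lower under SMADi, against 32.6%. In WT 4 rose and 25 fell under BMP4, and 14 rose and 36 fell under SMADi.

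A region 42340 bp from SOX2, a core pluripotency and neural factor (chr3:181756776-181756976), had 16.9 and 12.9 CPM in KO and 10.6 and 14.9 CPM in DATG on day 5 of BMP4, against 5.52 and 4.22 CPM in WT. The mutant libraries lay above WT on that day, with log2 changes over 5 days of 0.78 in KO (SE 0.09, adjusted p = 1.51e-11) and 0.66 in DATG (SE 0.09, adjusted p = 7.97e-08). The SOX2 region with the highest day 0 level, in SOX2-OT (chr3:181695390-181695590), was called in no line comparison within a table. Near L1TD1, an RNA-binding protein of stem cells, KO was higher by 0.77 under BMP4 and lower by -1.45 under SMADi at the same region. Near JARID2, a Polycomb cofactor, and DPPA2, regions were lower in KO under SMADi by -1.75 and -1.64. Near CDH1 a region was higher in DATG under BMP4 by 0.70 and lower under SMADi by -2.29.

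Near neuroectoderm genes (108 members at 25 genes), 26 members were higher and 9 lower in KO under BMP4 and 18 and 1 in DATG, while under SMADi 13 were higher and 41 lower in KO and 5 and 32 in DATG. These are 24.1% and 16.7% higher under BMP4, and 38.0% and 29.6% lower under SMADi, near the shares over all members under SMADi. The SMADi counts in KO were 8 and 40 without the library labelled KO day 1 SMADi b. Near LHX5, a forebrain factor, a region was higher under BMP4 by 0.86 in KO and 0.73 in DATG. Near POU3F1, a POU factor of neural progenitors (chr1:38270565-38270765), a region was lower under SMADi by -2.13 in KO and -2.02 in DATG. Near neural crest genes (62 members at 9 genes) 11 were higher and 4 lower in KO under BMP4, and 6 higher and 22 lower (35.5%) under SMADi. The crest factor PAX7 had a region lower under SMADi by -1.97 in KO and -1.63 in DATG.

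Near mesoderm genes (74 members at 24 genes), 9 were higher and 10 lower in KO under BMP4 and 3 and 4 in DATG. Under SMADi 7 were higher and 27 lower in KO and 7 and 23 in DATG, and the 36.5% and 31.1% lower are near the shares over all members. The SNAI1 region that rose in WT under BMP4 was lower in KO by -0.94 (SE 0.09, adjusted p = 1.1e-15) and in DATG by -0.55. Near ISL1, a cardiac and motor neuron factor, a region was lower under SMADi by -1.33 in KO and -1.18 in DATG, and near WNT3, a ligand of gastrulation, by -1.34 and -1.41. Near KDR, a receptor of blood vessel precursors, a region was lower in KO by -1.04.

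Near genes that respond to BMP signalling (73 members at 18 genes), 9 were higher and 9 lower in KO under BMP4 and 4 and 5 in DATG, and 7 higher and 16 lower in KO under SMADi and 6 and 13 in DATG. The 21.9% and 17.8% lower are below the shares over all members. Among the members of this list a region 128328 bp from TFAP2A, a factor of surface ectoderm and amnion, was higher under BMP4 by 1.29 in KO and 1.11 in DATG. A region near ID2, an inhibitor of basic helix-loop-helix factors, rose in WT by 1.86 under BMP4 and was lower in KO by -0.48 and in DATG by -0.44. Near MSX2, a homeobox target of BMP, a region was lower under SMADi by -2.58 in KO and -3.06 in DATG.

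The remaining lists were smaller. Near Wnt targets (49 members at 14 genes), 12 were higher and 5 lower in KO under BMP4 and 7 and 20 under SMADi, with FZD7, a Wnt receptor, higher by 0.88 under BMP4 and AXIN2, an inhibitor of the pathway, lower by -0.85 under SMADi. Near Nodal targets (27 members at 9 genes) the KO counts were 4 and 2 under BMP4 and 3 and 10 under SMADi. Near amnion and trophoblast genes (54 members at 13 genes) they were 8 and 10, and 2 and 23, with VTCN1, an amnion surface marker, lower under SMADi by -1.65. Near endoderm genes (37 members at 9 genes) they were 1 and 6, and 1 and 5. Near ribosomal protein genes, used as a control list (20 members at 7 genes), they were 1 higher and 8 lower under SMADi. In percent of their members, the KO shares lower under SMADi were 40.8% near Wnt targets, 37.0% near Nodal targets, 42.6% near amnion and trophoblast genes, 13.5% near endoderm genes and 40% in the ribosomal control list, against 32.6% of all members, and the control list thus lay within the range of the other lists. Without the library labelled KO day 1 SMADi b the lower counts in these 5 lists were 17, 7, 21, 5 and 8, and those near pluripotency, mesoderm and BMP-responsive genes were 45, 27 and 14.

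The distal members differed in their shares from the 59519 shared regions within 10 kb of a gene end. In KO under SMADi 8.29% of the members were higher and 32.6% lower, against 20.2% and 14.8% of the near regions (median log2 0.08), or 6.85% and 29.6%, against 15.8% and 13.1%, without the library labelled KO day 1 SMADi b. In WT under BMP4 8.92% of the members rose and 22.9% fell, against 17.4% and 13.5%. In WT under SMADi falls outnumbered rises in both sets, so this was not particular to the members. There 11.5% of the members rose and 23.5% fell, against 10.4% and 17.4% of the near regions. The difference between treatments in KO was positive at 28.5% and negative at 7.67% of the members, against 13.3% and 16.9% of the near regions. Under BMP4 itself, 14.2% of the members were higher in KO, against 8.45% of the near regions.

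The 10 kb limit was not a sharp edge. Members at 10 to 12 kb (2583) were 9.72% higher and 27.1% lower in KO under SMADi, and shared regions just inside the limit at 8 to 10 kb (3150) were 8.95% and 28.9%. In the lowest of 4 level classes 2.07% of members were higher and 46.5% lower in KO under SMADi, and in the highest 17.8% and 20.2%. The level is the mean over all SMADi libraries, mutant ones included. A fall in the mutant lines thus itself lowers the level, and the classes are not independent of the calls. Inside gene bodies 9.57% were higher and 30.9% lower, and between genes 6.31% and 35.2%. All 27967 members passed the filter on low counts in each table.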

How the data were processed

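Chromatin accessibility was measured by ATAC-seq, done by a service provider with an Omni-ATAC-type protocol and 10 PCR cycles, per the labels' protocols. The authors deposited 3 tables of raw read counts per region of fixed length, for day 0, BMP4 and SMADi, each with its own regions. MACS2 and GRCh38 are named in the submitters' processing notes, and the aligner is not given in the sources used here. No molecular identifiers are recorded, so counting precision covers counting error only.

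Regions were compared with RefSeq genes of GRCh38.p14 (19974 coding and 18177 lncRNA genes). Each table was fitted whole in R 4.3.3 with edgeR 4.0.16 (TMM scaling, filterByExpr, robust quasi-likelihood test, a mean per line and day, Benjamini-Hochberg adjustment over all regions of the table), and a region was called at an adjusted p under 0.05. Groups of 1 library were assumed to vary like the others. The BMP4 and SMADi effects were compared in a joint fit of 87486 paired regions over 33 libraries. CPM used TMM-scaled library sizes, and levels under a treatment come from the overlapping region of that table. Standard errors were derived from the F statistic of each log2 change. DESeq2 1.42.0, other scalings, no filter, the replicate letter as a block, left-out libraries, a stricter overlap and a 50 kb limit were alternatives. The fits were tested on simulated data. In 20000 regions with 100 changed by a log2 of 1, 62 were recovered at day 0, 99 under BMP4, 91 under SMADi and 85 in the joint fit. Of 100 changed by 0.5 in the same runs, 10, 59, 28 and 15 were recovered.

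Named regions were, per comparison, up to 5 in each direction with the largest log2 change among members at or above the median level, 1 per nearest coding gene. A few regions the rule named are not reported here. Added to them were up to 5 in each direction called alike in 3 tables, up to 5 in each direction of the treatment difference, and the member with the highest day 0 level within 500 kb of each of 18 anchor genes. Other regions named for a class or a list were chosen after their values were seen. The members and the gene lists were chosen with earlier results of these data known. A region belonged to a list through its nearest coding gene within 500 kb. The labels do not say that replicate letters are separate cultures, so p-values measure the spread between these libraries, which may be technical. Sequences come from RefSeq tables of GRCh38.p14. Python 3.11.15 with pandas 2.3.3 and matplotlib 3.10.9 was used for tables and plots.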

Additional observations from a re-analysis of the deposited data

Results flagged for a closer look

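The regions below are given because the change in 1 group differed from that in another by a direct test, with edgeR's quasi-likelihood test and Benjamini-Hochberg adjustment over all regions. The change from day 1 to day 5 differed from that of WT at 524 members in KO and 19 in DATG under BMP4, and at 5890 in KO (4175 without the library labelled KO day 1 SMADi b) and 5007 in DATG under SMADi. The difference between the mutant line and WT was not the same under BMP4 as under SMADi at 10119 members in KO and 7977 in DATG.

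Among the members named by rule in KO, the BMP4 minus SMADi difference of the line effects was 4.92 near GJC3, 4.81 near SIRPG, 4.25 near ZNF100 and 4.21 near LIMCH1 on the log2 scale. GJC3 encodes a gap junction protein, and SIRPG encodes a surface receptor of lymphocytes. On the negative side it was -2.37 near THBS4, -2.05 near BRSK2, a kinase of neuron polarity, -1.95 in PDGFRB, -1.93 near LIPC and -1.74 near LOC124903828.

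In DATG the difference was 3.97 near GALNT17, 3.82 near MSC, 3.76 near NOX3, 3.74 near MEX3C and 3.72 near UGT2B4. MSC is a basic helix-loop-helix repressor, MEX3C an RNA-binding protein, and NOX3 an NADPH oxidase of the inner ear. The negative differences were -1.93 in CCDC3, -1.82 in PDGFRB, -1.72 near KLRF2, -1.53 near LOC124903828 and -1.52 near BRF1, a factor of RNA polymerase III. PDGFRB was named in both lines, which share the WT libraries. On day 5 of BMP4 the PDGFRB region had 11.3 and 10.6 CPM in KO and 16.7 and 11.2 CPM in DATG, against 19.8 and 16.8 CPM in WT. After 5 days of SMADi it had 14.3 and 17.5 CPM in KO and 14.6 CPM in DATG, against 4.85 and 4.3 CPM in WT. The mutant libraries lay below WT in the first and above in the second.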

How the results depend on the processing

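Under the alternatives no named region was called in the opposite direction. In KO at day 0 the majority of calls reversed with total-count scaling, at 7 higher and 8 lower, against 9 and 6 with TMM. Under DESeq2's Wald test fewer members were called. At day 0 it called 0.00715% in KO and in DATG. Under BMP4 it called 12% in KO, 3.75% in DATG and 15.5% in WT. It called 0.00715% alike in 3 tables in each mutant line, against 0.0179% in KO and 0.0572% in DATG in the quasi-likelihood fits. The count of opposite line effects fell to 1337 in KO and 460 in DATG. Without a call, 23% of members had the same sign in all 3 tables in KO. Asking for the stricter overlap gave 0.152% for DATG at day 0. Replicate letters showed little pairing, since the differences between replicates a and b correlated between lines of a day at r = -0.122 to 0.17. On day 2 of BMP4 the pairs of lines were all above 0, at 0.148, 0.112 and 0.144. With the replicate block 0.0429% were called in KO and 0.147% in DATG at day 0, 20.5% and 10.1% under BMP4, 38.8% and 28.4% under SMADi, and 35.8% and 28% for the treatment difference.

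With each library left out in turn, the share called ran from 0.0179% to 0.107% in KO and from 0.0215% to 0.354% in DATG at day 0, from 17.3% to 19.9% in KO and from 6.68% to 10.1% in DATG under BMP4, and from 16.8% to 23.8% in WT under BMP4. Under SMADi it ran from 27.7% to 42.7% in KO, from 17.8% (without DATG day 5) to 42.6% (without DATG day 1) in DATG and from 26.1% to 32.1% in WT. For the treatment difference it ran from 27.7% to 36.6% in KO and from 18.8% to 39.4% in DATG, and for calls alike in 3 tables from 0.00715% to 0.0179% in KO and from 0.0143% to 0.0572% in DATG.

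Where the only library of a group was left out, its day dropped out of the mean. Those SMADi and treatment-difference shares therefore belong to a comparison over fewer days. Total-count scaling moved the median log2 change in WT under BMP4 to -0.38 and gave 7 higher and 8 lower calls in KO at day 0, against 9 and 6 with TMM. For named regions 2830 of the values under alternatives kept direction and call and 132 lost the call, mostly at day 0. In simulated data 62 of 100 changes by a log2 of 1 were recovered at day 0. How far library depth or library number limited the day 0 calls was not tested. The counts by day, class and gene list without the library labelled KO day 1 SMADi b were added after seeing the data.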

Other observations

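Members were unevenly spread over genes. The largest run, 16 members each within 10 kb of the next, spanned chr2:231662342-231687522 near PTMA, which encodes the chromatin protein prothymosin alpha, and 365 runs held at least 5 members. By nearest coding gene, PTPRN2, a phosphatase-like protein of secretory vesicles, had 44 members, GLI2, a Hedgehog transcription factor, had 41 and ZMIZ1, a transcriptional coregulator, had 40.

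These neighbourhoods were not uniform in direction. Over all members 8.92% rose and 22.9% fell in WT under BMP4, 11.5% rose and 23.5% fell in WT under SMADi, and 8.29% were higher and 32.6% lower in KO under SMADi. Of the 40 members at ZMIZ1, 16 rose (40%) and 2 fell (5%) in WT under BMP4, and 13 were higher and 4 lower in KO under SMADi. At PTPRN2 2 rose and 14 fell in WT under BMP4, whereas 14 rose and 7 fell in WT under SMADi. At GLI2 11 members (26.8%) fell in WT under BMP4, near the share over all members. In KO under SMADi 12 members were higher and 6 lower at PTPRN2, and 3 higher and 5 lower at GLI2. In the run near PTMA 6 of the 16 members rose and 1 fell in WT under BMP4, and 3 were higher and 2 lower in KO under SMADi. These genes were chosen after their counts were seen, and neighbouring members are not independent.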
